A study of Homo sapiens with 16 samples.

Results

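The difference between SW480 and HCT116 cells in their response to curcumin was examined gene by gene, as the change with curcumin in SW480 minus the change with curcumin in HCT116, called the interaction. A positive interaction means that the treated-minus-control difference was higher in SW480, and a negative one that it was higher in HCT116. The genes were chosen by gene type and control level: 5444 protein-coding genes at 5 or more in all 4 control libraries, out of 60560 genes in the table, 19914 of them protein-coding. The series holds 2 experiments, curcumin and andrographis, with 8 libraries each. In the curcumin experiment there were 4 groups of 2 libraries: SW480 control, SW480 curcumin, HCT116 control and HCT116 curcumin, all collected after 16 h. The labels call the controls non-treated, and the methods describe curcumin (BCM-95) as dissolved in DMSO. SW480 and HCT116 are established colorectal cancer lines. The concentrations given for the study's experiments in general are 3.0 µg/mL for SW480 and 2.4 µg/mL for HCT116, with none named for sequencing, so that cell line and concentration cannot be told apart. Separate cultures for replicate libraries are not mentioned, and the spread behind each p-value is that among these libraries, which may be technical.

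SW480 and HCT116 carry different driver lesions. SW480 cells have a truncated APC protein and a mutant p53, while HCT116 cells have an activated beta-catenin and wild-type p53. Curcumin is an electrophilic plant polyphenol. Electrophiles of this kind release the transcription factor NRF2 from its repressor KEAP1, and NRF2 then drives genes of glutathione and thioredoxin synthesis and of iron storage. Genes of mitosis are transcribed together late in the cell cycle, under the DREAM repressor and the MYB-MuvB and FOXM1 activators, so that their level in a culture follows the number of cells passing through G2 and M phase.

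Levels are given in FPKM (fragments per kilobase, scaled to depth), a unit inferred from the values, and changes on the log2(FPKM + 1) scale. The approximate depth ran from 9.31 to 22.88 megareads in the curcumin experiment, with the lowest depths in SW480 curcumin replicate 1 (9.31) and HCT116 curcumin replicate 2 (10.26). HCT116 control replicate 1 stood apart by its 34402 genes above 0, against 25897 to 32816 in the other libraries. Of 10 markers of colorectal epithelium, 7 were at 1 FPKM or more in every library, and VIL1, LGALS4 and CEACAM5 were near 0. The summed level of 12 immune markers was at most 2.39 FPKM, and that of 11 stromal and endothelial markers at most 4.2 FPKM. Mitochondrially encoded genes took 35.8 to 41.83% of all FPKM in the curcumin experiment, against 0.04 to 0.09% with andrographis.

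All 5444 genes passed the filter for testing, as did 16341 genes in all. The lowest values inside the limit of 5 FPKM were those of ATG16L1 (5.0029), ICE2 (5.003) and APOO (5.0037), and the highest outside it those of CFL2 (4.9987), COQ2 (4.9977) and TTC13 (4.9972). A further 1144 protein-coding genes reached the limit in the controls of SW480 only and 862 in those of HCT116 only, and 157 that missed it in a control were at 5 or more in all 4 treated libraries. The differences between the lines were small. Over the members the interaction had a median of -0.03, an SD of 0.155 and a range from -0.86 to 0.80, and 2199 genes were above 0 and 3245 below. Its median standard error was 0.105.

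No gene passed the interaction test after adjustment: 0 of the 5444 members in limma, where the lowest adjusted p was 0.192, and 0 of all 16341 genes (0.0%). At an unadjusted p below 0.05, 477 members were counted, 165 positive and 312 negative, which is 8.76% of the members against 8.21% of all genes tested. By direction, positive genes were 3.03% of the members (all genes 3.23%) and negative ones 5.73% (all genes 4.98%). With an absolute difference above 0.5 in addition, 47 members were left, 12 positive and 35 negative, or 0.863% against 2.59% of all genes (0.997% positive and 1.6% negative). The excess of negative genes depended on the scaling: with libraries scaled to the same median, the 511 members at unadjusted p split into 257 positive and 254 negative, and with scaling to the nuclear protein-coding sum into 286 and 210. Without HCT116 control replicate 1 the split was 269 and 234. When protein-coding genes alone were fitted, a choice made after the values were seen, 8 of the 5444 members passed the adjusted p. Over all 11431 genes of that fit, 21 positive and 19 negative ones passed. The 8 members were AURKA, NCAPG, HJURP, BUB1 and HMGN2 with a negative interaction, and AKAP12, EMP1 and ZBED2 with a positive one.

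The responses of both lines shared a part of their direction. Across the 5444 genes, which share a depth and a scaling factor within each library, the changes in SW480 and HCT116 correlated with r = 0.40 (rho = 0.35). Between single treated-minus-control pairs of libraries, r ran from 0.00 to 0.53 across the lines, and it was 0.57 or 0.39 within SW480 and 0.65 or 0.11 within HCT116, depending on which treated library was set against which control. After adjustment, 11 members rose and 3 fell in SW480 (background 0.306% of all genes, 0.129% up and 0.177% down), and 14 rose and 5 fell in HCT116 (background 0.171%, 0.104% up and 0.0673% down). These calls needed all 8 libraries: with any 1 left out, 0 to 6 members passed in SW480 and 0 to 1 in HCT116. At unadjusted p in both lines, 149 members were higher in both (2.74%, background 1.42%) and 111 were lower in both (2.04%, background 1.35%). Opposite directions were seen in 46 members, 16 with curcumin higher in SW480 and lower in HCT116 (0.294%, background 0.233%) and 30 the other way (0.551%, background 0.361%).

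**Figure D1:**
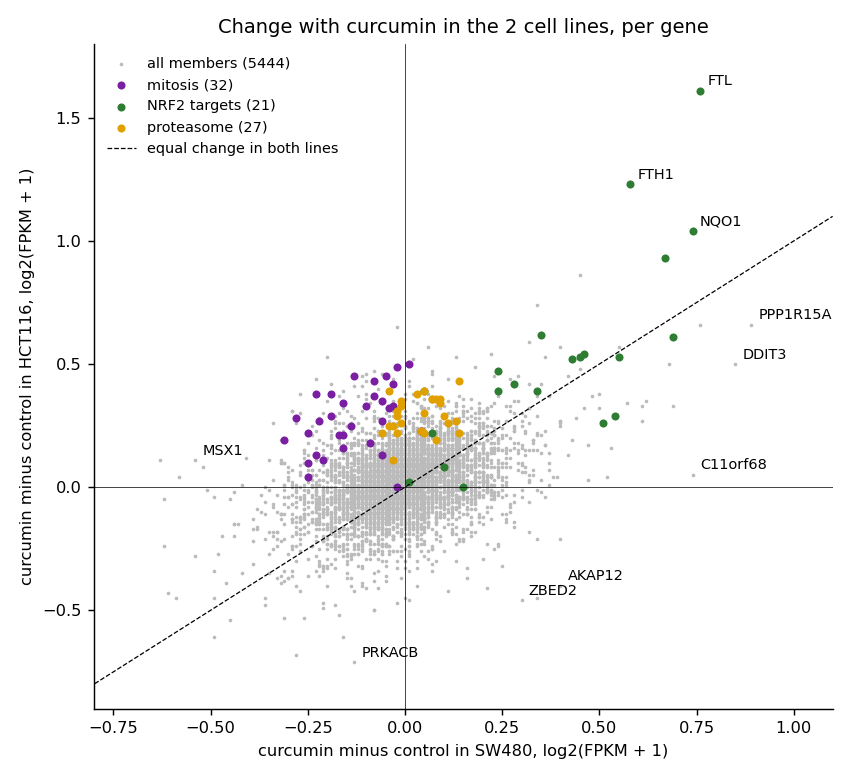
Change with curcumin in HCT116 (vertical axis) against that in SW480 (horizontal axis), both in log2(FPKM + 1), for 5444 genes, with mitosis genes, NRF2 targets and proteasome subunits in colour and a dashed line for equal change. All 32 mitosis and all 27 proteasome genes lie above the dashed line, NRF2 targets lie to the upper right with FTL and FTH1 far above it, and AKAP12 and ZBED2 lie far below it.

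Mitosis genes had the lowest median interaction of the 29 gene lists. Their median change was -0.14 in SW480 and 0.28 in HCT116, and their median interaction was -0.42, against -0.03 over all members and -0.02 over all genes tested. All 32 mitosis genes among the members had a negative interaction (31 with scaling to the same median, to quantiles or to the nuclear protein-coding sum, or without HCT116 control replicate 1), 26 of them at unadjusted p below 0.05, and in 29 the 4 treated-minus-control differences of HCT116 lay above all 4 of SW480; over all genes tested 12.6% did so, and 9.57% did the reverse. In HCT116 31 of the 32 genes were above 0 and 20 were higher at unadjusted p (5.96% of all genes tested were, and 5.82% were lower), with AURKA and BUB1 the 2 that rose after adjustment. In SW480 2 of the 32 were above 0 and 9 were lower at unadjusted p (7.33% of all genes tested were, and 4.88% were higher), none after adjustment. The list was chosen with earlier results of these data known, and its count is a description. Whether more cells were in mitosis or each cell held more of this RNA cannot be told apart in bulk samples.

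AURKA, the kinase that matures the spindle poles, was at 37.4 and 36.7 FPKM in SW480 controls, at 33.9 and 33.6 with curcumin in SW480, at 14.2 and 15.2 in HCT116 controls and at 20.5 and 20.5 with curcumin in HCT116. The 4 groups did not overlap, and curcumin lay below the controls in SW480 and above them in HCT116. The change was -0.13 (SE 0.05) in SW480 and 0.45 (SE 0.05, limma adjusted p = 0.0456) in HCT116, and the interaction was -0.59 (SE 0.07, limma adjusted p = 0.192). BUB1, a kinase of the spindle checkpoint, read 27.1 and 26.0 FPKM in SW480 controls, 24.8 and 25.1 with curcumin, 15.0 and 15.2 in HCT116 controls and 20.9 and 20.5 with curcumin. It also stood lower in HCT116 than in SW480 in every library, and the gap was narrower with curcumin, more from the HCT116 side than from that of SW480. The HCT116 change of 0.43 passed adjustment (SE 0.05, limma adjusted p = 0.0456), whereas the SW480 change of -0.08 had an interval from -0.20 to 0.03.

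CCNB1, the cyclin that drives entry into mitosis, was at 55.5 and 57.7 FPKM in SW480 controls and at 46.0 and 50.6 with curcumin, and at 50.2 and 60.2 in HCT116 controls and 68.4 and 75.4 with curcumin. Treated and control libraries did not overlap in either line, while the controls of the lines overlapped. Its interaction was -0.60 (SE 0.14). CCNB2, the related B-type cyclin, had an interaction of -0.50 (SE 0.09), from 34.8 and 35.6 to 30.3 and 32.5 FPKM in SW480 and from 22.9 and 23.8 to 28.7 and 31.1 in HCT116. NCAPG, a subunit of the condensin complex that compacts chromosomes, was not in the list. It was at 16.5 and 16.5 FPKM in SW480 controls and 13.6 and 15.0 with curcumin, and at 19.3 and 19.3 in HCT116 controls and 26.2 and 26.2 with curcumin, which gave an interaction of -0.61 (SE 0.08). The chromatin protein HMGN2 (-0.67, SE 0.11), the phosphatase CDKN3 that acts on cyclin-dependent kinases (-0.67, SE 0.18), the spindle protein FAM83D (-0.60, SE 0.15), GTSE1, which binds microtubules in mitosis (-0.54, SE 0.09), and HMMR, a spindle assembly factor (-0.50, SE 0.13), had interactions of like size; of these HMMR alone was in the list.

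The weakest interactions in the list were those of CENPF (-0.29), TPX2 (-0.26), BUB3 (-0.20), MAD2L1 (-0.19) and CDC25B (-0.02), named after their values were seen. CDC25B, the phosphatase that activates CDK1 at the G2 to M transition, was at -0.02 in SW480 and at -0.00 in HCT116. The count of 26 mitosis genes at unadjusted p ran from 20 to 26 when each library was left out in turn, and it was 23 without HCT116 control replicate 1 and 20 without both shallow libraries. The median interaction was -0.36 and -0.39 in those settings. The 12 housekeeping reference genes moved the same way by less: all 12 had a negative interaction, with a median of -0.12, from -0.05 in SW480 to 0.12 in HCT116. At unadjusted p 1 of the 12 (TFRC) was negative, as were 4.98% of all genes tested. Over all settings the housekeeping median ran from -0.25 to -0.08.

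**Figure D2:**
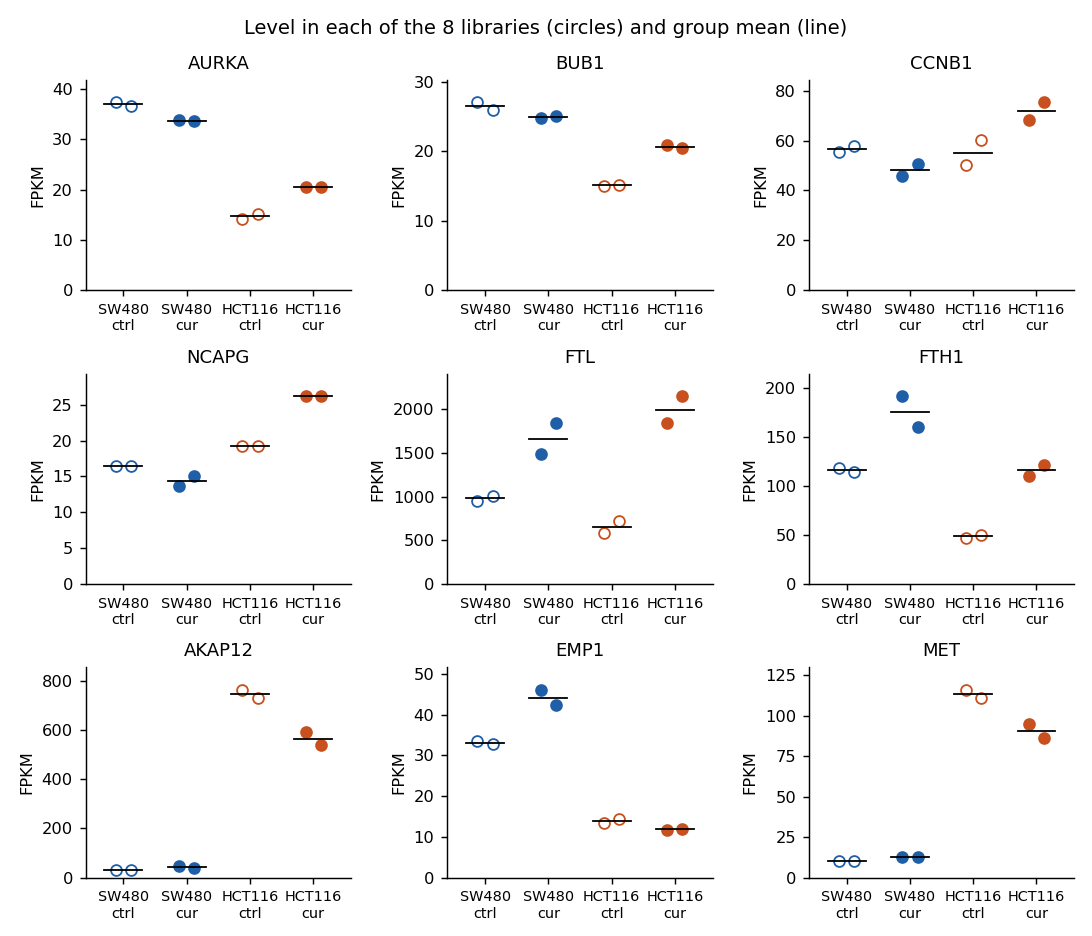
FPKM (vertical axes, from 0) of 9 genes in the 8 libraries, with open circles for control and filled circles for curcumin, blue for SW480 and orange for HCT116, and lines for group means. AURKA, BUB1, CCNB1 and NCAPG were lower with curcumin in SW480 and higher in HCT116, FTL and FTH1 were higher in both lines, and AKAP12, EMP1 and MET were higher in SW480 and lower in HCT116.

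**Figure D3:**
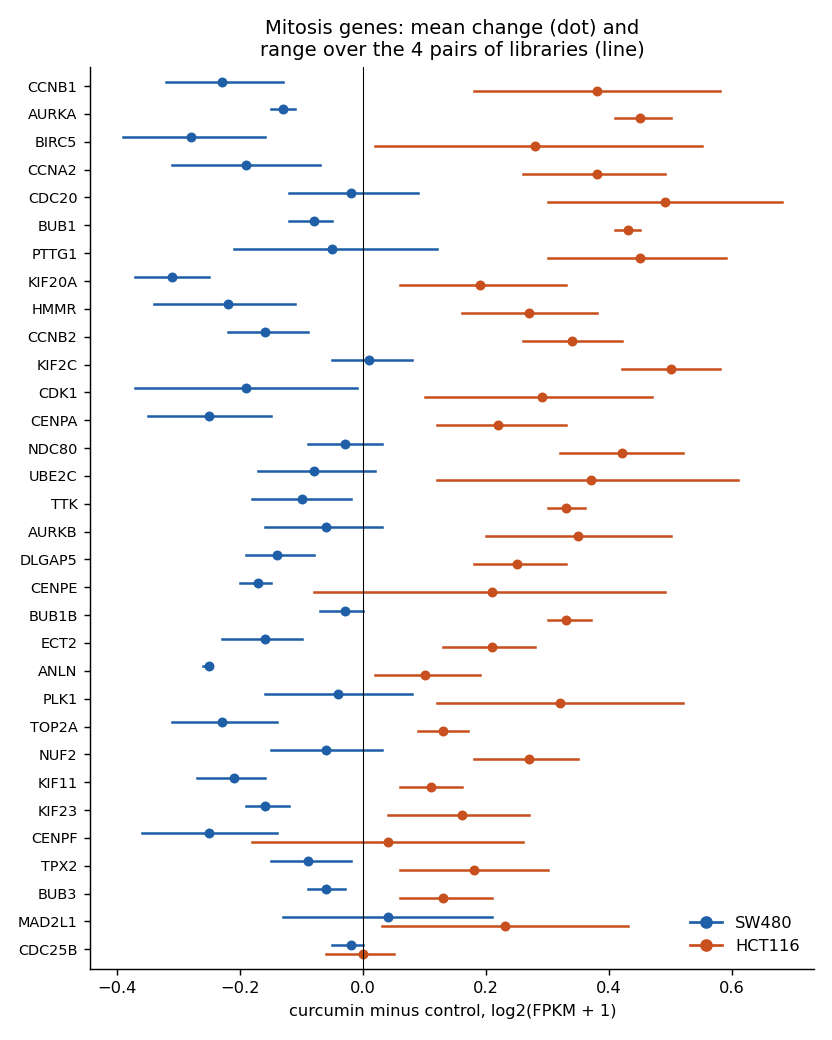
Change with curcumin, in log2(FPKM + 1), of the 32 mitosis genes in SW480 (blue) and HCT116 (orange), ordered by interaction; dots are mean changes and lines span the 4 treated-minus-control pairs, which share libraries. In 29 of the 32 genes the HCT116 range lies above the SW480 range, and the exceptions are CENPF, MAD2L1 and CDC25B.

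Late cell cycle promoters are known for a cell cycle genes homology region (CHR), bound by the DREAM and MYB-MuvB complexes, with CCAAT boxes bound by NF-Y upstream of it. The 250 bases before the start site of each gene were searched for the CHR letters TTTGAA, read TTCAAA on the other strand, and the palindrome TTTAAA, and for the CCAAT box, read ATTGG on the other strand; a CCAAT box may share its last letter with a CHR. Of the 26 mitosis genes with a promoter in the RefSeq table (GRCh38.p14), 18 held a CHR (69.2%), 19 a CCAAT box (73.1%) and 15 both (57.7%). Over all 27305 promoters of the table these shares were 22.1%, 33.0% and 7.85%, and over the 4546 members with a promoter they were 13.2%, 36.2% and 5.57%. Both motifs were found in 48 of 255 promoters of members with a negative interaction at unadjusted p (18.8%) and in 4 of 129 with a positive one (3.1%). A CHR, with or without a CCAAT box, was found in 26.3% and 11.6% of them. The 312 negative members include 26 genes of the mitosis list, so these shares are not separate from those of that list. A match is a description of letters and not of a bound site. The 150 bases before the start site are printed for CCNB2 (chr15:59104996-59105145, plus strand), KIF20A (chr5:138178962-138179111, plus strand) and CENPA (chr2:26785906-26786055, plus strand), chosen after their values were seen, to show how the motifs are spaced in members of this group; capitals mark CHR and CCAAT box matches.
CCNB2: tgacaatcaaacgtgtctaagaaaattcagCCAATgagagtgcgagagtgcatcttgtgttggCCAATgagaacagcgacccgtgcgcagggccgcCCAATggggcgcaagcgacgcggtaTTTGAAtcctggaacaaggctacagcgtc
KIF20A: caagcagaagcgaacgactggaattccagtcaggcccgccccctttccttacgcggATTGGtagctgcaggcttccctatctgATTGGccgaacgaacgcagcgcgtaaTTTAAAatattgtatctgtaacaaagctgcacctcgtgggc
CENPA: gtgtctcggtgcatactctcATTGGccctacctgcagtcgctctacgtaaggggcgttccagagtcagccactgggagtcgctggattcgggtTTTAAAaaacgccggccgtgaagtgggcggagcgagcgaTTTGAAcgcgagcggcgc

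The CCNB2 promoter held 3 CCAAT boxes, starting 120, 87 and 54 bases before the start site, and a CHR 29 bases before it. In that of KIF20A, a kinesin of cytokinesis, 2 reverse CCAAT boxes started 94 and 67 bases and a CHR 41 bases before the start site. CENPA, the histone H3 variant of centromeres, had 1 CCAAT box and 2 CHR matches. KIF20A was at 18.8 and 19.6 FPKM in SW480 controls, 15.0 and 15.6 with curcumin, 16.1 and 18 in HCT116 controls and 20.5 and 18.8 with curcumin. Treated and control libraries of KIF20A did not overlap in either line, and its interaction was -0.50 (SE 0.10). That of CENPA was -0.47 (SE 0.10).

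Genes of DNA replication did not follow those of mitosis as a group. Their median change was -0.07 in SW480 and 0.02 in HCT116, and 14 of 28 interactions were positive and 14 negative. At unadjusted p 4 were negative (4.98% of all genes tested were). These 4 were RRM2 (-0.56, SE 0.11), TYMS (-0.37, SE 0.09), ORC1 (-0.35, SE 0.10) and RRM1 (-0.25, SE 0.08). RRM2, RRM1 and TYMS make deoxynucleotides, and ORC1 marks origins of replication. The helicase subunit MCM7 was lower by a like amount in both lines, at 132 and 128 FPKM in SW480 controls, 95.5 and 94.0 with curcumin, 49.5 and 54.0 in HCT116 controls and 35.3 and 35.4 with curcumin. MCM7 fell in HCT116 (-0.54, limma adjusted p = 0.0456), and the SW480 change was -0.45 (limma adjusted p = 0.0519). The 4 replication-dependent histone genes among the members had a median interaction of -0.36 and none was at unadjusted p.

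Proteasome subunits, which degrade ubiquitin-marked proteins, stood higher with curcumin in HCT116. The median change of the 27 subunits was 0.05 in SW480 and 0.29 in HCT116. All 27 interactions were negative, with a median of -0.27, and 9 were at unadjusted p (4.98% of all genes tested were negative at that p). The differences of the lines did not overlap in 17 of the 27, against 12.6% of all genes in that direction. In HCT116 22 subunits were higher at unadjusted p (5.96% of all genes) and none after adjustment. PSMD11, a subunit of the proteasome lid, went from 16.3 and 17.5 to 21.9 and 22.1 FPKM in HCT116, and from 25.8 and 26.0 to 27.2 and 27.1 in SW480 (interaction -0.29, SE 0.07). PSMC2, an ATPase of the base, had an interaction of -0.34 (SE 0.09), from 8.52 and 8.97 to 10.9 and 11.6 FPKM in HCT116. The 9 became 4 to 14 when each library was left out in turn, lowest without HCT116 curcumin replicate 2, and 19 with the replicate number as a block. Without both shallow libraries the proteasome median was -0.14, with 3 subunits at unadjusted p and 3 above 0.

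Cytosolic ribosomal protein genes had a median change of -0.02 in SW480 and 0.14 in HCT116 and a median interaction of -0.17 over 57 genes. This median interaction changed with the libraries used: it was 0.05 without both shallow libraries, and -0.03 without HCT116 curcumin replicate 2 alone. Negative interactions were 55 of the 57 with all libraries. They were 41 without SW480 curcumin replicate 1 (9.31 megareads), and also 41 without HCT116 control replicate 1 (20.57 megareads). A part of depth was not tested. RPL30 had the largest value of the list, at 33.7 and 30.2 FPKM in SW480 controls, 30.5 and 22.7 with curcumin, 55.8 and 42.4 in HCT116 controls and 57.6 and 70.5 with curcumin, and it varied between libraries of a group (interaction -0.65, SE 0.27). RPS27AP5, whose symbol is that of a ribosomal protein pseudogene although the table lists it as protein-coding, was at -0.73 (SE 0.20). Many ribosomal protein genes have near-identical copies, and reads shared among copies make the level of each uncertain. Nuclear genes of oxidative phosphorylation shifted in the same way and also turned, from -0.13 to 0.09 without both shallow libraries.

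NRF2 target genes lay above their controls in both lines, and the ferritins did so by more in HCT116. The median change of 21 targets was 0.43 in SW480 and 0.47 in HCT116, all 21 were above 0 in each line, and 4 rose in SW480 (0.129% of all genes tested did) and 6 in HCT116 (0.104%) after adjustment. Their median interaction was -0.09, and 4 were negative (4.98% of all genes) and 1 positive (3.23%) at unadjusted p. FTL, the ferritin light chain of the iron storage shell, had the lowest interaction of all members. It was at 954 and 1006 FPKM in SW480 controls, 1486 and 1842 with curcumin, 589 and 717 in HCT116 controls and 1839 and 2152 with curcumin. The controls were lower in HCT116 than in SW480, and the treated libraries reached overlapping levels. FTL rose by 1.61 (SE 0.16, limma adjusted p = 0.0446) in HCT116, the SW480 change was 0.76 (SE 0.16, limma adjusted p = 0.135), and the interaction was -0.86 (SE 0.22, interval from -1.40 to -0.32).

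FTH1, the ferritin heavy chain that oxidises iron, was also lower in HCT116 than in SW480 controls, at 119 and 114 FPKM in SW480 controls, 192 and 160 with curcumin, 47.4 and 49.9 in HCT116 controls and 110 and 122 with curcumin. With curcumin its HCT116 level overlapped that of the SW480 controls and stayed below that of treated SW480. It rose by 1.23 (SE 0.10, limma adjusted p = 0.0302) in HCT116, and its SW480 change was 0.58 (SE 0.10), with an interaction of -0.65 (SE 0.14). Both ferritin genes have many pseudogene copies that may share their reads. The other NRF2 targets in this direction at unadjusted p were the peroxiredoxin PRDX1 (-0.34, SE 0.12) and GCLM, the regulatory subunit of the enzyme that starts glutathione synthesis (-0.23, SE 0.07). GCLM went from 11 and 11.4 to 16.3 and 15.5 FPKM in HCT116 and from 10.6 and 10.5 to 12.5 and 12.8 in SW480. TXNRD1, the thioredoxin reductase, was the 1 target with a positive interaction at unadjusted p (0.25, SE 0.08): it rose by 0.54 in SW480 and its HCT116 change was 0.29. TFRC, the transferrin receptor that takes up iron, was at -0.07 in SW480 and 0.28 in HCT116 (interaction -0.34, SE 0.07). GPX4, the peroxidase that removes lipid peroxides, had a change of 0.09 (SE 0.11) in SW480 and 0.21 (SE 0.11) in HCT116. Its interaction was -0.12 (SE 0.16) at 64.7 to 95.3 FPKM, and AIFM2 was below the limit at 4.84 FPKM.

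Of the 165 members with a positive interaction at unadjusted p, 19 were in a gene list and none in that of mitosis. The largest positive interaction was that of AKAP12, a scaffold of protein kinases A and C at the membrane. It was at 33.2 and 31.8 FPKM in SW480 controls, 47.0 and 39.9 with curcumin, 763 and 729 in HCT116 controls and 591 and 540 with curcumin. Curcumin thus lay above the controls in SW480, where the level was low, and below them in HCT116, where it was high. The changes were 0.40 (SE 0.09) and -0.40 (SE 0.09), and the interaction was 0.80 (SE 0.13, limma adjusted p = 0.226). PRKACB, a catalytic subunit of protein kinase A, fell in HCT116 by 0.71 (SE 0.08, limma adjusted p = 0.0456), from 58.3 and 59.8 to 37.5 and 33.8 FPKM, and was at 7.55 and 7.66 in SW480 controls and 6.35 and 7.36 with curcumin (interaction 0.58, SE 0.11).

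The 12 largest positive values included genes with either order of control levels. EMP1, a tetraspan membrane protein, was at 33.6 and 32.7 FPKM in SW480 controls, 46.1 and 42.3 with curcumin, 13.5 and 14.4 in HCT116 controls and 11.8 and 12 with curcumin (interaction 0.61, SE 0.09). MET, the receptor of hepatocyte growth factor, was at 10.6 and 10.4 FPKM in SW480 controls, 12.9 and 12.5 with curcumin, 116 and 111 in HCT116 controls and 95.2 and 86.4 with curcumin (0.57, SE 0.09). The control levels of these genes differed in opposite ways, EMP1 being higher in SW480 and MET in HCT116, while the direction of the curcumin difference was the same. AHNAK2, a large scaffold protein (0.79, SE 0.20), MYOF, a membrane fusion protein (0.62, SE 0.13), and CAV2, a caveolin (0.53, SE 0.09), were also among the 12. The others were ZBED2, a zinc finger repressor (0.76, SE 0.11), C11orf68 (0.69, SE 0.15), TINAGL1 (0.55, SE 0.13), the splicing regulator MBNL2 (0.52, SE 0.08) and the phagocytosis adaptor GULP1 (0.50, SE 0.12). C11orf68 differed from the rest in that its HCT116 level hardly moved, at 21 and 25.7 FPKM in controls and 22.5 and 25.8 with curcumin, against 41 and 43.2 and then 72.6 and 69.2 FPKM in SW480.

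MYC, a transcription factor of cell growth, was at 102 and 100 FPKM in SW480 controls, 114 and 112 with curcumin, 80.0 and 92.3 in HCT116 controls and 65.7 and 70.6 with curcumin. No treated library overlapped a control of its line, and the interaction was 0.49 (SE 0.11). HK2, the first enzyme of glycolysis, changed by 0.24 in SW480 and -0.24 in HCT116 (0.47, SE 0.09). The cytokine LIF (0.47, SE 0.10) and the mRNA decay factor ZFP36L1 (0.48, SE 0.09) had the same pattern. On the other side, SLC1A5, the glutamine transporter, was at -0.23 in SW480 and 0.23 in HCT116 (-0.46, SE 0.13), and the paracaspase MALT1 (-0.60, SE 0.12), the histone demethylase KDM7A (-0.60, SE 0.16) and ZNF503 (-0.57, SE 0.14) were lower in SW480 and higher in HCT116 at unadjusted p. MSX1, a homeobox factor, was at 16.4 and 16.1 FPKM in SW480 controls and 10.7 and 11.1 with curcumin, while HCT116 held 16.9 and 20.7 and then 18.5 and 22.1 (-0.64, SE 0.16).

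Of 24 listed Wnt pathway genes 5 were members, and 4 of the 5 had a positive interaction. The median change of the 5 was -0.17 in SW480 and -0.33 in HCT116. At unadjusted p 3 of the 5 were positive (3.23% of all genes tested were): MYC, CD44 (0.28, SE 0.07) and SOX4 (0.21, SE 0.07). CD44, a hyaluronan receptor, went from 107 and 106 to 83.0 and 78.5 FPKM in HCT116 and from 18.2 and 18.4 to 16.7 and 17.1 in SW480. SOX4, a transcription factor, fell in HCT116 by 0.53 (limma adjusted p = 0.0412) and had a change of -0.31 in SW480. Fatty acid synthesis genes had a median of -0.11 in SW480 and -0.24 in HCT116. FASN was the 1 of 9 at unadjusted p in the interaction (0.27, SE 0.10), against 3.23% of all genes tested positive at that p.

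Genes of the integrated stress response, which runs through ATF4 and DDIT3, had a median change of 0.24 in SW480 and 0.23 in HCT116 over 21 genes. PPP1R15A, which ends the block of translation in this response, rose in both lines, by 0.89 (SE 0.07) in SW480 and 0.66 (SE 0.07) in HCT116. It was at 40.6 and 38.9 FPKM in SW480 controls, 77.2 and 72.1 with curcumin, 25.9 and 28.1 in HCT116 controls and 42.3 and 44.4 with curcumin. DDIT3 rose by 0.85 in SW480 and its HCT116 change was 0.50 (interaction 0.35, SE 0.13). STC2, a secreted glycoprotein, was at 37.3 and 36.1 FPKM in SW480 controls and 55.2 and 47.6 with curcumin, and at 22.7 and 23.0 and then 23.7 and 22.9 FPKM in HCT116 (0.45, SE 0.11). The interaction was at unadjusted p in 3 positive (3.23% of all genes tested) and 1 negative gene (4.98%) of this list, the negative one being SLC1A5. HERPUD1, a factor of endoplasmic reticulum-associated degradation, was at 0.21 in SW480 and -0.23 in HCT116 (0.43, SE 0.11).

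Ribosome biogenesis genes had positive interactions in 19 of 24, with a median of 0.11 (0.12 in SW480 and -0.00 in HCT116). RRP12 (0.43, SE 0.09) and NOP16 (0.33, SE 0.11) were the 2 at unadjusted p, against 3.23% of all genes tested positive at that p. Mitochondrially encoded genes had the highest median of all lists, 0.27 over 13 genes (0.12 in SW480 and -0.07 in HCT116), with 11 positive and none at unadjusted p. MT-ATP6 was at 7132 and 8881 FPKM in SW480 controls, 9573 and 9782 with curcumin, 10180 and 10872 in HCT116 controls and 9895 and 9191 with curcumin, so that the low SW480 control replicate 1 carried part of its value of 0.42 (SE 0.27). Without that library the list's median was 0.13, and with quantile normalization it was 0.06.

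**Figure D4:**
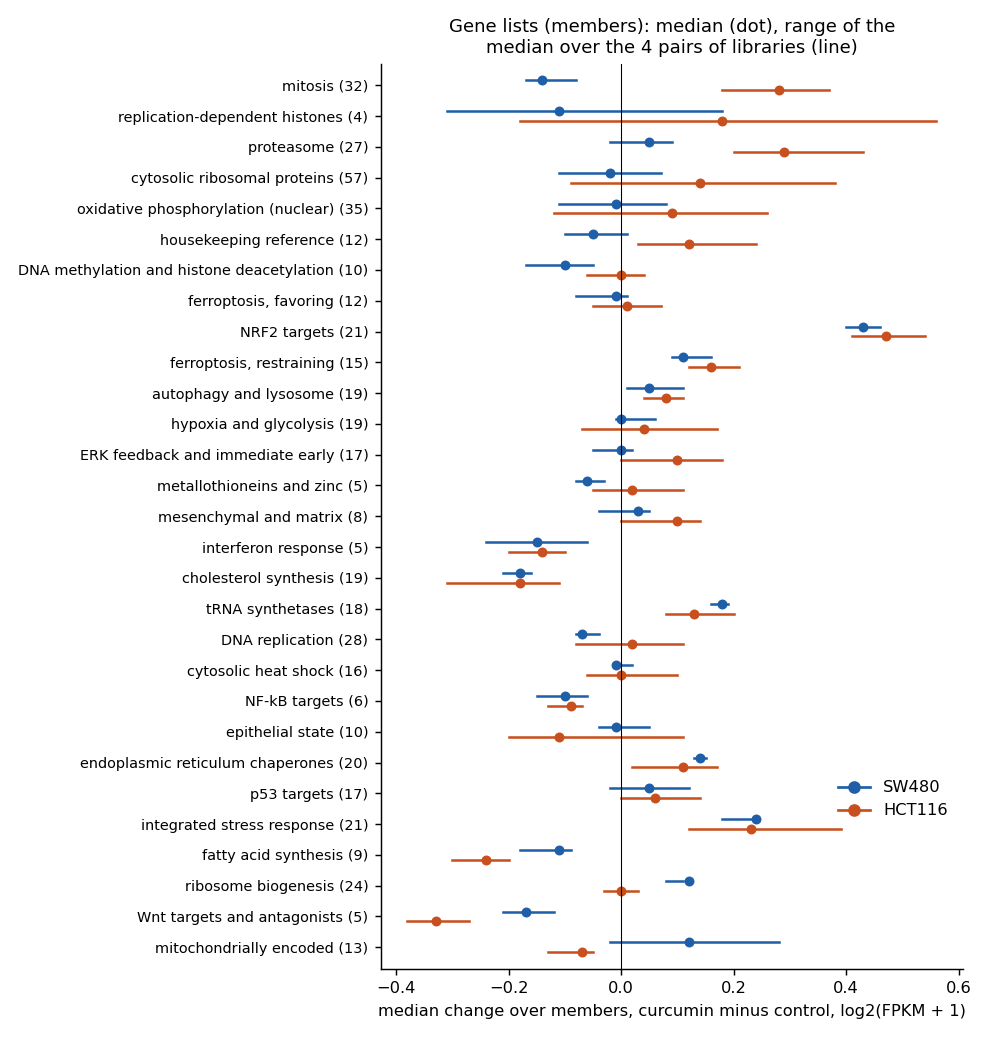
Median change with curcumin, in log2(FPKM + 1), over the members of each gene list (number in brackets) in SW480 (blue dots) and HCT116 (orange dots), with lines for the range of the median over the 4 treated-minus-control pairs of a line. Lists are ordered by median interaction, from mitosis (-0.42) to mitochondrially encoded genes (0.27), and the line ranges of mitosis lie on opposite sides of 0.

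The remaining lists had median interactions between -0.11 and 0.08. All 19 cholesterol synthesis genes were below 0 in both lines, with a median of -0.18 in each, 10 of them at unadjusted p in SW480 (7.33% of all genes were lower at that p) and 9 in HCT116 (5.82%), and none had an interaction at unadjusted p. The p53 targets had medians of 0.05 in SW480 and 0.06 in HCT116 and none of 17 at unadjusted p in the interaction. A part of p53 status, which differs between the lines, was not tested. Cytosolic heat shock genes (16 genes, median -0.01), NF-kB targets (6 genes, 0.04) and interferon response genes (5 genes, -0.02) also had no interaction at unadjusted p. Among the 17 p53 targets, the differences of the lines did not overlap in 4 positive and 2 negative genes (9.57% and 12.6% of all genes tested). Genes named for the same sign and an absolute interaction under 0.15 included NIBAN1 (0.76 and 0.66 in SW480 and HCT116), GTPBP2 (0.55 and 0.57), GCLC (0.46 and 0.54), PABPC1L (0.45 and 0.48) and TXN (0.55 and 0.53), which were higher, and S100A4 (-0.49 and -0.61) and MCM7, which were lower. For GCLC the pairs of libraries of the lines did not overlap, at 0.45 to 0.46 in SW480 and 0.50 to 0.59 in HCT116. GAPDH was at 509 to 632 FPKM in all libraries, with an interaction of -0.16 (SE 0.14).

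The interaction was set against how far apart the lines stood before treatment. Of the 312 members with a negative interaction at unadjusted p, 225 were higher in SW480 controls and 85 in HCT116 controls, by any amount. Of the 165 positive ones 68 and 96 were. These control levels are also part of the interaction. Over all 16341 genes tested, 5660 were higher in SW480 controls and 5178 in HCT116 controls at unadjusted p, a stricter count. Among 8547 genes at 5 FPKM or more in at least 2 libraries, these counts were 3637 and 2933. A count by any amount over all members was not made, so the split of the members has no like background. Across 5399 genes tested with both compounds, the interaction had r = 0.04 (rho = 0.05) with the difference between SW480 and HCT116 in the controls of the andrographis experiment, which share no library with it. The controls of both experiments gave like line differences (r = 0.68, rho = 0.65). By level, the median interaction was -0.02, -0.02, -0.03 and -0.05 over 4 groups of 1361 members from the lowest to the highest level, and 105, 112, 125 and 135 genes of them were at unadjusted p.

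Andrographis, a plant extract tested in a separate experiment with its own controls, gave other differences between the lines. In its table the letters A and D in column names were taken to stand for andrographis and control. Of the 5399 genes, 76 passed the andrographis interaction test after adjustment (1.41%, against 2.36% of all genes tested with andrographis), 27 positive and 49 negative. The interactions of the compounds correlated with r = -0.08 (rho = -0.06), and of 471 genes at unadjusted p with curcumin, 43.9% had the same sign with andrographis, against 47.3% of all 5399. Mitosis genes had an andrographis median of 0.07 in SW480 and -0.03 in HCT116, and none of the 32 passed the adjusted interaction there. FTL had the same direction with both compounds, as its andrographis interaction was -1.29 (limma adjusted p = 0.0426). AKAP12 had opposite directions, with an andrographis interaction of -1.52 (limma adjusted p = 0.0173). The p53 targets, with none of 17 at unadjusted p in the curcumin interaction, had an andrographis median of -0.02 in SW480 and 0.66 in HCT116. There 6 of 17 passed with a negative interaction. The experiments differ in the kinds of RNA in their libraries, and their part in this contrast was not tested.

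**Figure D5:**
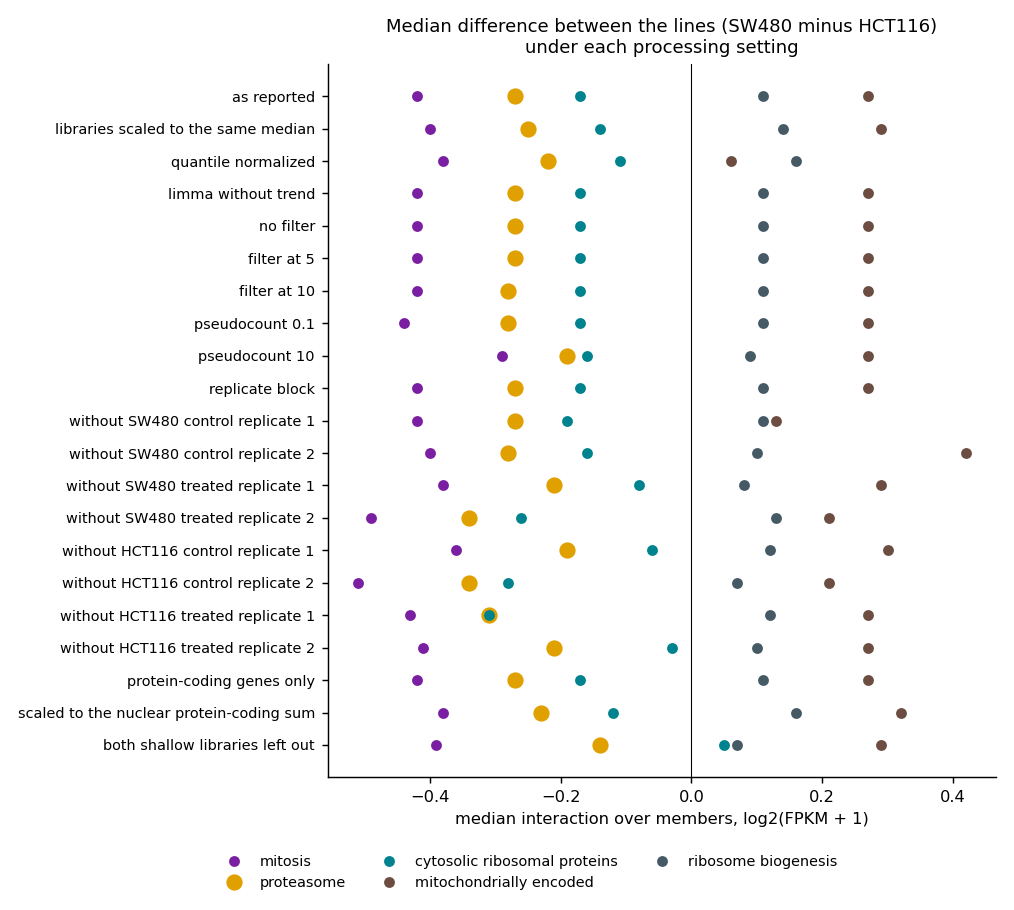
Median interaction, in log2(FPKM + 1), of 5 gene lists under each processing setting; each dot is a list's median over its members, positive where the change was higher in SW480. Mitosis lies between -0.51 and -0.29 in all settings, proteasome between -0.34 and -0.14, and ribosomal protein genes cross 0 when both shallow libraries are left out.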

How the data were processed

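Both experiments were RNA sequencing of total RNA (TruSeq kit, paired-end 150 bp reads). The authors deposited a table for each experiment holding log2(value + 1) for every gene, and per the labels their processing notes name bcl2fastq 2.20.0.422, STAR 2.7.8a, Partek 10.0.22.0121, DESeq2 and the builds GRCh38 and mm10 (a mouse build) with no role given; the counting tool and unit are not given in the sources used here. After back-transformation, low microRNA values were whole multiples of a step per gene (97.1 to 98.5% of values per curcumin library, to within 0.01 times the read number), as FPKM values are, and these steps gave the depths. Depth is therefore approximate, and no count test was run.

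Genes at 1 FPKM or more in at least 2 of the 8 curcumin libraries were fitted with limma 3.58.1 in R 4.3.3 (4 group means, eBayes with trend, 4 residual degrees of freedom), with Benjamini-Hochberg adjustment over all genes tested at 0.05. Fold changes on the log2(FPKM + 1) scale understate those of low genes. Intervals are 95% limma intervals. The fit was tested on simulated data with known interactions. At adjusted p it found 29.9% of those with an absolute size of 0.5, 77.6% of those of 1 and 98.5% of those of 2. Of the 5444 members 52 had an absolute interaction above 0.5, and smaller sizes were not simulated. Noise was drawn separately for each library, so these rates may differ from those in the data. Interactions of the sizes seen here can be missed. Tables used Python 3.11.15 and pandas 2.3.3. The andrographis experiment was fitted separately.

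Genes were named by a rule: the 12 largest interactions in each direction at unadjusted p with the lines' differences not overlapping, up to 8 members per orientation at unadjusted p in both lines with opposite signs, up to 8 with the same sign and an absolute interaction under 0.15, the 3 lowest interaction p in each gene list, and GPX4, AIFM2 and GAPDH, 118 genes in all; others named were chosen after their values were seen. Some of the genes the rule selects are not reported here. The members and lists were chosen with earlier results of these data known. The other assays of the study were not analysed here.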

Additional observations from a re-analysis of the deposited data

Results flagged for a closer look

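The median change of the 32 mitosis genes ran in opposite directions in the 2 lines: it was below 0 in each of the 4 treated-minus-control pairs of SW480 (-0.17 to -0.08) and above 0 in each of the 4 pairs of HCT116 (0.18 to 0.37). The median interaction was -0.42. Pairs of a line share libraries, and the difference between the lines was not tested for the list as a whole.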

How the results depend on the processing

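No interaction passed adjustment with any 1 library left out (0 to 0 members), against 4 with no filter and 8 when protein-coding genes alone were fitted. Over all genes tested in those 2 settings, 186 positive and 46 negative of 60560 passed with no filter. With protein-coding genes alone, 21 positive and 19 negative of 11431 did. In other settings, 1 negative gene passed without the trend, and 6 positive and 5 negative genes with a filter at 10 FPKM. With a pseudocount of 10, 9 positive and 19 negative genes passed. In these last 3 settings 0 of the genes that passed were members. The 477 members at unadjusted p were 225 to 544 with 1 library left out, and the 47 that also differed by over 0.5 were 42 to 81, 9 with a pseudocount of 10, 96 with a member limit of 1 FPKM and 28 with 10 FPKM. Calls in SW480 (14) were 31 after quantile normalization, 3 without the trend, 2 with no filter, 57 and 81 with filters at 5 and 10 FPKM, 9 and 47 with pseudocounts of 0.1 and 10, 0 from the line's own 4 libraries, 98 with protein-coding genes alone, 28 with scaling to the nuclear protein-coding sum, 0 without both shallow libraries and 0 to 6 with 1 library left out. Calls in HCT116 (19) were 0 without the trend, 29 with no filter, 44 and 86 with filters at 5 and 10 FPKM, 6 and 40 with pseudocounts of 0.1 and 10, 0 from the line's own libraries, 104 with protein-coding genes alone, 0 without both shallow libraries and 0 to 1 with 1 library left out. The 46 members with opposite directions were 21 without the trend, 76 with no filter, 23 without both shallow libraries and 13 to 48 with 1 library left out, and the correlation of 0.40 between the lines was 0.29 to 0.42. Over all genes tested, calls after adjustment in each line also moved with the setting. With protein-coding genes alone, 106 rose and 196 fell in SW480 and 87 rose and 111 fell in HCT116, of 11431. With a filter at 5 FPKM, 59 rose and 82 fell in SW480 and 31 and 34 in HCT116, of 8547. With a filter at 10 FPKM these were 72 and 84 in SW480 and 62 and 63 in HCT116, of 5420. The mitosis median of -0.42 was -0.29 with a pseudocount of 10 and -0.51 to -0.36 with 1 library left out. The proteasome median of -0.27 was -0.19 with a pseudocount of 10, -0.14 without both shallow libraries and -0.34 to -0.19 with 1 library left out. Other list medians moved by more than the spread between pairs of libraries in 52 of 517 cases. The causes were not tested.

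Libraries with the same replicate number deviated together (r from 0.208 to 0.579 over 6 pairs of groups), but the labels do not say what a number marks, and with 2 numbers a group the pairing was not taken as established. With the replicate number as a block, 734 members were at unadjusted p in the interaction, 75 had opposite directions, 6 were called in SW480 and 13 in HCT116, and 0 interactions passed adjustment. Over all 16341 genes tested with this block, 651 positive and 1050 negative interactions were at unadjusted p. After adjustment 6 of these genes rose and 5 fell in SW480, and 12 rose and 5 fell in HCT116. Of 118 named genes, 28 had an unadjusted p below 0.05 with an absolute interaction over 0.5; 4 of these did so under every alternative, and none changed sign. Leaving out a library leaves 1 sample in its group, which is assumed to vary like the others. The protein-coding fit, the nuclear scaling and leaving out both shallow libraries were chosen after seeing the data. With 2 libraries a group, precision is limited, and the values keep no exact depth.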
